A study of Mus musculus with 11 samples.

Results

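miR-192, miR-194 and miR-215 are microRNAs (miRNAs), short RNAs that repress messenger RNAs, and they are made from 4 hairpin precursors that lie in pairs at separate loci of the mouse genome. They were described here across liver small RNA libraries of telomerase-knockout mice with short telomeres. Members were all rows of the deposited count table whose name begins with miR-192, miR-194 (its numbered copies included) or miR-215, either arm, which gave 7 of the 1281 mature names in the table. The mice, G4 telomerase knockouts of C57/B6 background and untreated, formed 2 groups that share the telomerase deletion and the short telomeres: 5 G4 p53+/+ libraries, numbered 1 to 5, with intact p53, and 6 G4 p53-/- libraries, numbered 6, 7, 8, 10, 11 and 12, lacking p53. The sources used here state neither age nor sex nor the kind of p53 allele. Tissue was whole liver, and no group used here had normal telomeres. The labels do not say that each library came from its own animal, and p-values therefore reflect only how far these libraries differ, which may be technical. In bulk liver, fewer cells of a type and less RNA per cell cannot be told apart.

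p53 is a transcription factor that dysfunctional telomeres activate, and in human cells it raises transcription of the miR-192, miR-194 and miR-215 precursors. Their mature forms are known to restrain cell division and to repress the p53 inhibitor Mdm2. In liver, gut and kidney the same genes are kept on by hepatocyte nuclear factors, and miR-192-5p and miR-194-5p are regarded as typical miRNAs of hepatocytes and intestinal epithelium. Each hairpin is cut into a 5p and a 3p arm, of which one usually accumulates, and bases 2 to 8 of an arm, the seed, do most of the pairing with a messenger RNA.

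All 7 members had a mature sequence in RefSeq (GRCm38.p6). They are shown 5′ to 3′ with the seed in capitals, under their full names (mmu for mouse),, because shared and unshared seeds decide which arms can be read as 1 family.
mmu-miR-192-5p: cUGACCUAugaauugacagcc
mmu-miR-215-5p: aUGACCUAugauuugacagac
mmu-miR-194-5p: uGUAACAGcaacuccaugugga
mmu-miR-194-2-3p: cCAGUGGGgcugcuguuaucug
mmu-miR-194-1-3p: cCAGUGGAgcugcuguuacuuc
mmu-miR-192-3p: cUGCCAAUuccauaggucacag
mmu-miR-215-3p: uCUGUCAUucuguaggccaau

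miR-192-5p and miR-215-5p share the seed UGACCUA, and no other mature miRNA of the RefSeq table carried it. They are identical at 18 of 21 positions and differ, counted from the 5′ end of miR-192-5p, by C1A, A12U and C20A. The seed of miR-194-5p, GUAACAG, was found in no other mature miRNA of that table. The 3p arms of the miR-194 hairpins are identical at 18 of 22 positions and differ, with miR-194-1-3p written first, by A8G, C19U, U20C and C22G. The change at position 8 gives them different seeds. That of miR-194-2-3p, CAGUGGG, was also carried by 2 other mature miRNAs of that table, and the seeds of the other 3p arms by none. The sources used here do not state how mismatched reads were counted, and low counts of miR-215-5p and miR-194-1-3p beside their abundant near-copies are uncertain.

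The hairpins that carry miR-194 are printed with both arms in capitals, because they share the 5p arm letter for letter and differ in the 3p arm, so that miR-194-5p cannot be assigned to a locus while the 3p arms can.
Mir194-2: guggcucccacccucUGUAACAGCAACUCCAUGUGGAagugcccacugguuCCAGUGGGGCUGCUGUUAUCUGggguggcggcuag
Mir194-1: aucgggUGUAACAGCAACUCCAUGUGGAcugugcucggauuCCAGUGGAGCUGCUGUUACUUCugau

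Mir194-2 lies at chr19:6264643-6264728 and Mir192 at chr19:6264844-6264932, both on the plus strand of GRCm38 with 115 bases between them. GENCODE M21 annotates no other gene over either of them. The nearest gene upstream is Atg2a, an autophagy gene on the same strand that ends 2307 bases before Mir194-2, and the long noncoding RNA Gm14963 lies on the opposite strand 3862 bases beyond Mir192. Mir194-1 lies at chr1:185313319-185313385 and Mir215 at chr1:185313581-185313692, also on the plus strand, with 195 bases between them. Both sit inside an intron of Iars2, the mitochondrial isoleucyl-tRNA synthetase gene, which is on the opposite strand. They also lie within the antisense gene 2010103J01Rik on their own strand, where Mir215 falls in an exon and Mir194-1 in an intron.

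Total counts per library, each name counted once, ran from 1905609 to 6448820 in the p53+/+ libraries and from 2202415 to 6682492 in the p53-/- libraries. The shallowest were p53+/+ libraries 1 and 2 and p53-/- library 11. Differences between genotypes were tested by edgeR's quasi-likelihood test over the 388 miRNAs that passed a filter on low counts, with Benjamini-Hochberg adjustment over all of them, and levels are given as normalised CPM, read counts per 1000000 after TMM scaling. Positive log2 fold changes mean higher levels in p53-/- livers. Of the 7 members 4 passed the filter: both arms of miR-192, miR-194-5p and miR-194-2-3p. The check on the genotype was miR-34a-5p, a direct p53 target, which was the 1 miRNA called (0.258% of those tested), at a log2 fold change of -3.33 (adjusted p = 7.07e-05 in edgeR). The Trp53 transcript is not measured in a miRNA table.

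The chromosome 19 pair supplied nearly all reads that could be placed at a locus. miR-194-1-3p, the 3p arm specific to chromosome 1, had 2 reads in p53+/+ library 3, 3 in p53+/+ library 4, 3 in p53-/- library 6 and 0 in each of the other 8 libraries. miR-194-2-3p, specific to chromosome 19, had between 614 and 3111 reads in every library. Over all libraries the chromosome 1 arm made up 8 of 20080 reads of the 3p arms, or 0.0398% (95% Wilson interval 0.0202 to 0.0786%). That interval pools the libraries, in which the share ran from 0% to 0.171% (p53-/- library 6), and it covers counting error only. In the 8 libraries at 0, a count of 0 allows a share of up to 0.0964% to 0.489%, a limit that covers counting error only. How many of the miR-194-5p reads came from chromosome 1 cannot be read from these counts.

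miR-215-5p, which carries the same seed as miR-192-5p, was close to the limit of detection. It had 4, 1, 4, 8 and 5 reads in p53+/+ libraries 1 to 5. In p53-/- libraries 6, 7, 8, 10, 11 and 12 it had 13, 8, 8, 3, 1 and 3 reads. Summed over a genotype these were 22 reads in p53+/+ and 36 reads in p53-/-, or 1.07 and 1.10 CPM of the summed totals, and the groups overlapped fully. Together the chromosome 1 copy accounted for 58 of 2180458 reads with the UGACCUA seed, 0.00266% (95% Wilson interval 0.00206 to 0.00344%). That interval covers counting error only, and single libraries ran from 0.000992% in p53-/- library 12 to 0.00784% in p53-/- library 6. miR-215-3p, the other arm, had 4 reads in p53+/+ library 4 and 0 in the other p53+/+ libraries, against 3, 7, 5 and 1 reads in p53-/- libraries 6, 7, 8 and 10 and 0 in libraries 11 and 12. The 3 arms of chromosome 1 did not pass the filter and were not tested, and no difference in them was detectable at this depth.

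**Figure D1:**
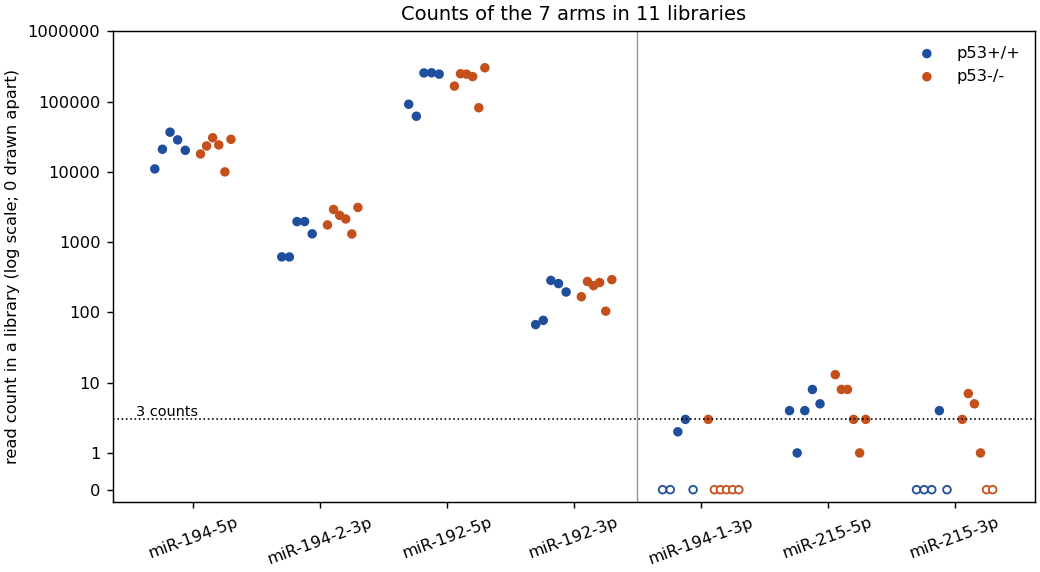
Read counts of the 7 arms in each of the 11 libraries on a log axis, p53+/+ in blue and p53-/- in orange; open symbols are libraries with 0 reads, drawn apart from the axis, and the dotted line marks 3 counts. The 4 arms left of the vertical line have at least 67 reads in every library, while the 3 arms specific to chromosome 1 never exceed 13.

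miR-192-5p, which represses regulators of the cell cycle, was the second most abundant miRNA by mean CPM, after the hepatocyte miRNA miR-122-5p, and ranked between 2 and 4 in single libraries. Its share of all counts was 4.35 ± 0.837% (SD, n = 5) with p53 and 3.84 ± 0.455% (SD, n = 6) without. On the normalised scale p53+/+ libraries 1 to 5 stood at 43594, 27875, 42763, 43183 and 58344 CPM. The p53-/- libraries 6, 7, 8, 10, 11 and 12 stood at 38023, 37149, 45320.1, 42427, 29802 and 42187 CPM. On this scale the highest and the lowest value were both p53+/+ libraries, 5 and 2, and all 6 p53-/- libraries lay between them. By library totals alone p53-/- library 6 was lowest at 31626.8 CPM, below p53+/+ library 2 at 32408.5 CPM. The log2 fold change was -0.14 (95% interval -0.52 to 0.24, SE 0.18, adjusted p = 0.714 in edgeR), so no difference larger than the spread between libraries was found. The estimate was -0.30 without p53+/+ library 2, -0.04 without p53+/+ library 5 and -0.05 without p53-/- library 11.

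Its partner arm miR-192-3p, which usually is degraded after processing, gave 2225 of the 2182625 reads of both arms (0.102%, 95% Wilson interval 0.0978 to 0.106%) and likewise did not differ in the test. That interval covers counting error only, and single libraries ran from 0.0732% in p53+/+ library 1 to 0.127% in p53-/- library 11. The arm stood at 31.9, 34.8, 47.8, 43.2 and 46.4 CPM in p53+/+ libraries 1 to 5. In p53-/- libraries 6, 7, 8, 10, 11 and 12 it stood at 38.3, 41.1, 44.4, 49.8, 38.0 and 40.7 CPM, inside the p53+/+ range except for library 10. The log2 fold change was 0.04 (95% interval -0.32 to 0.39, SE 0.17, adjusted p = 0.934 in edgeR), and it ran from -0.04 to 0.09 with 1 library left out.

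miR-194-5p, an arm known as a marker of hepatic epithelial cells, had lower mean levels without p53 but did not pass the test. Levels were 5241, 9457, 6140.3, 4790.0 and 4810.4 CPM in p53+/+ libraries 1 to 5. They were 4112, 3484, 5648, 4524, 3645 and 4045 CPM in p53-/- libraries 6, 7, 8, 10, 11 and 12. On this normalised scale all p53-/- libraries except library 8 lay below the lowest p53+/+ library. The p53+/+ library 2 stood far above every other library. Means were 6088 ± 1961 CPM (SD, n = 5) and 4243 ± 780.1 CPM (SD, n = 6), with a log2 fold change of -0.52 (95% interval -0.95 to -0.09, SE 0.20, unadjusted p = 0.0209, adjusted p = 0.190 in edgeR). Without p53+/+ library 2 it was -0.33 (adjusted p = 0.335 in edgeR). Without both shallow p53+/+ libraries, 1 and 2, it was -0.27 (adjusted p = 0.508 in edgeR). By library totals alone p53-/- library 11, at 4532.3 CPM, also lay above the lowest p53+/+ library, library 4 at 4415.1 CPM. The log2 fold change on that scale was -0.62 (adjusted p = 0.225 in edgeR).

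miR-194-2-3p, the partner arm from chromosome 19, went the other way. It stood at 294, 277, 328, 329.6 and 312 CPM in p53+/+ libraries 1 to 5. In p53-/- libraries 6, 7, 8, 10, 11 and 12 it stood at 402, 435, 443.5, 399.9, 477 and 434 CPM. Every p53-/- library was above every p53+/+ library, and both groups were narrow, with a mean of 308 ± 22.5 CPM (SD, n = 5) against 432 ± 28.5 CPM (SD, n = 6). Separate ranges of this kind were found for 9 of the 388 miRNAs tested (2.32%), 5 of them higher in p53-/- livers (1.29%), and 1 of the 4 tested members was among them. Levels without p53 were 1.40-fold those with p53, which is 0.49 on the log2 scale (95% interval 0.22 to 0.76, SE 0.12).

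In edgeR this difference did not pass after adjustment (unadjusted p = 0.00169, adjusted p = 0.174), although it had the third smallest p of all 388 miRNAs. DESeq2 called it, at a log2 fold change of 0.46 with an adjusted p of 6.70e-04, among 7 calls in 385 miRNAs (1.82%), 3 of them higher in p53-/- livers (0.779%). Without scaling beyond library totals, p53-/- library 6 at 334 CPM fell below p53+/+ library 3 at 337 CPM, so the ranges overlapped, and the log2 fold change was 0.46 (adjusted p = 0.225 in edgeR). At an unadjusted p under 0.05, 2 of the 4 tested members passed in edgeR, 1 in each direction, beside 17.3% of all miRNAs tested (8.25% higher and 9.02% lower in p53-/- livers). After adjustment 0 of the 4 passed in edgeR, 0 in limma-voom and 1 in DESeq2.

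**Figure D2:**
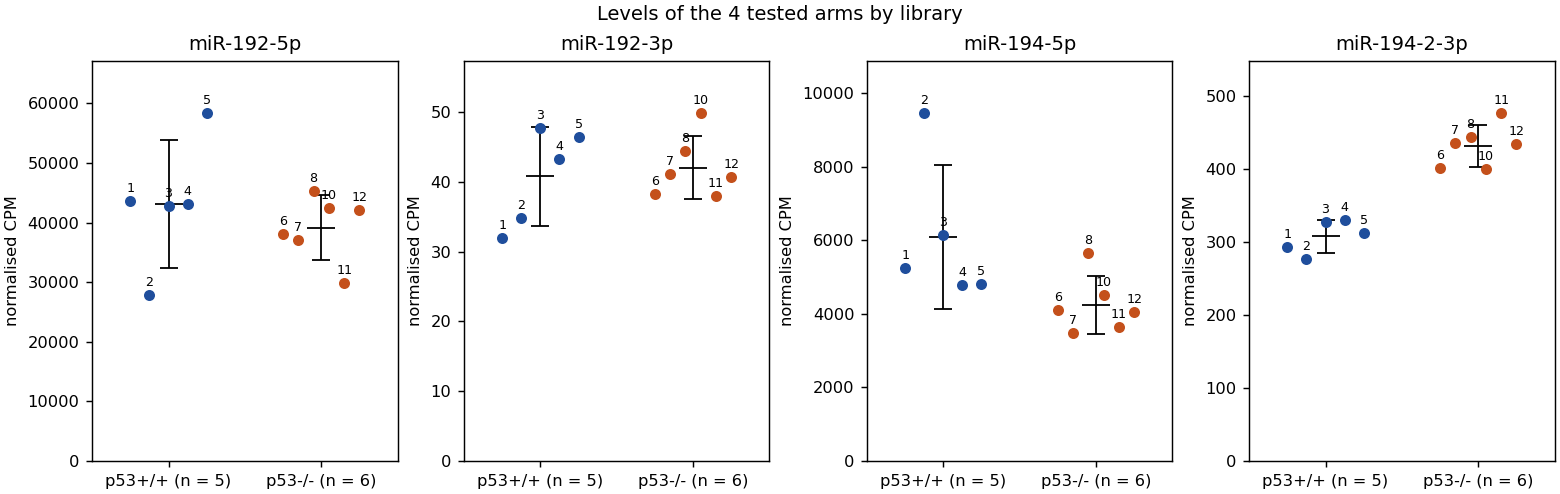
Normalised CPM of the 4 tested arms in each library, on axes that start at 0, with library numbers beside the points and bars for the mean and SD of 5 p53+/+ and 6 p53-/- libraries. The groups separate for miR-194-2-3p only, at most 329.6 CPM against at least 399.9 CPM, and p53+/+ library 2 holds the highest miR-194-5p and the lowest miR-192-5p value.

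**Figure D3:**
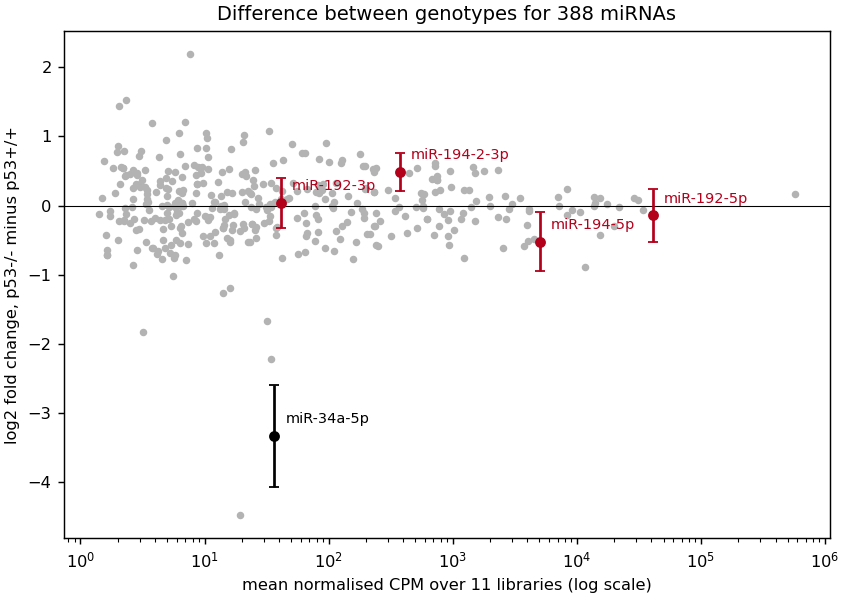
Log2 fold change (p53-/- minus p53+/+) of 388 miRNAs against their mean normalised CPM on a log axis; red points are the 4 tested members and the black point is miR-34a-5p, with 95% intervals. The intervals of miR-194-5p and miR-194-2-3p lie on opposite sides of 0, those of both miR-192 arms include 0, and miR-34a-5p lies at -3.33.

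Because arms of a hairpin are read in the same library, their ratio does not depend on how libraries are scaled. The log2 ratio of 5p to 3p counts was therefore tested with limma for all 124 pairs of arms of which both passed the filter. For miR-194-5p against miR-194-2-3p, p53+/+ libraries 1 to 5 had 17.8, 34.1, 18.7, 14.5 and 15.4 reads of the 5p arm for each read of the 3p arm. The p53-/- libraries 6, 7, 8, 10, 11 and 12 had 10.2, 8.00, 12.7, 11.3, 7.65 and 9.32. The ranges were separate, which held for 3 of the 124 pairs (2.42%).

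The ratio in p53-/- livers was 0.508 of that in p53+/+ livers, a difference of -0.98 in the log2 ratio (95% interval -1.45 to -0.50, SE 0.22). This was the smallest p of the 124 pairs (unadjusted p = 4.83e-04), and its adjusted p of 0.0598 in limma lay just above the threshold. In all, 0 of the 124 pairs passed after adjustment (0%), and 19 (15.3%) had an unadjusted p under 0.05. The adjusted p was 0.0450 with a pseudocount of 5 in place of 0.5, and 0.0162 when both arms had to average at least 50 counts. It was 0.0283 without p53+/+ library 4, 0.0246 without p53+/+ library 5 and 0.0476 without p53-/- library 8, and from 0.0578 to 0.161 under the other alternatives. Without p53+/+ library 2, which had the highest ratio, the difference was -0.77 (adjusted p = 0.0755 in limma). miR-194-5p can come from either locus and this 3p arm only from chromosome 19. The ratio may therefore include 5p reads from another hairpin, in a part that these counts do not give.

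For miR-192, whose arms come from 1 hairpin, the ratio did not differ in the test. There were 1364, 802.1, 895, 999 and 1258 reads of miR-192-5p for each read of miR-192-3p in p53+/+ libraries 1 to 5. In p53-/- libraries 6, 7, 8, 10, 11 and 12 there were 993, 904, 1021, 851, 785 and 1036. The groups overlapped, and the difference in the log2 ratio was -0.17 (95% interval -0.54 to 0.20, SE 0.18, adjusted p = 0.599 in limma). After the miR-194 pair, the smallest p belonged to the pairs of miR-30c-5p with miR-30c-2-3p (-0.74), of miR-664 (1.19) and of miR-1843b (-0.997), each with an adjusted p of 0.116 in limma.

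**Figure D4:**
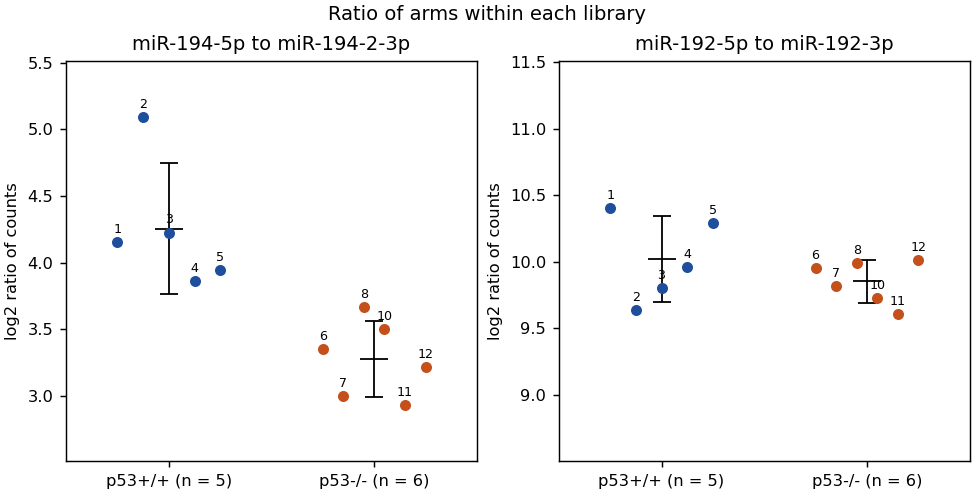
Log2 ratio of 5p to 3p counts in each library for miR-194-5p with miR-194-2-3p and for miR-192, with library numbers beside the points and bars for mean and SD; both panels span the same number of log2 units. All 5 p53+/+ libraries lie above all 6 p53-/- libraries in the first panel, and the groups overlap in the second.

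**Figure D5:**
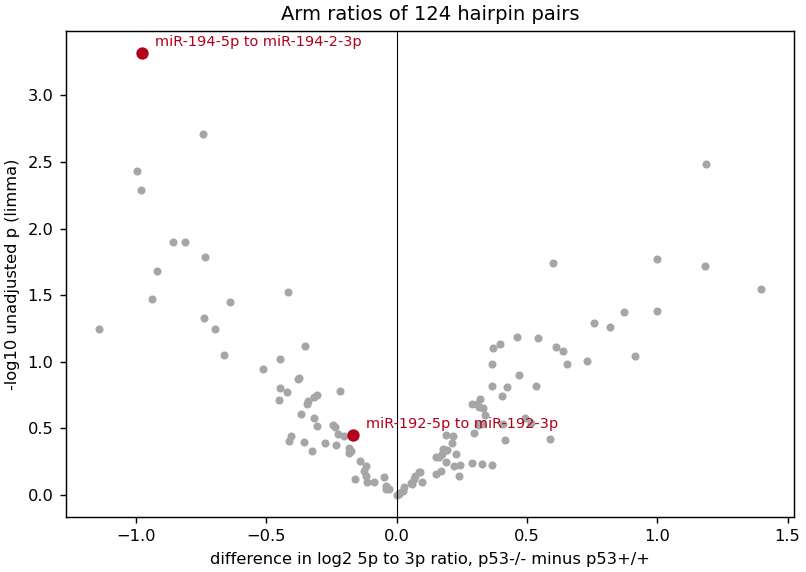
Difference between genotypes in the log2 ratio of 5p to 3p counts for 124 pairs of arms, against -log10 of the unadjusted p in limma. The miR-194 pair, at -0.98, has the smallest p of all pairs, and the miR-192 pair, at -0.17, lies among the bulk.

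The ratio between members encoded side by side on chromosome 19 varied between libraries. Reads of miR-192-5p for each read of miR-194-5p were 8.32, 2.95, 6.96, 9.02 and 12.1 in p53+/+ libraries 1 to 5. They were 9.25, 10.7, 8.02, 9.38, 8.18 and 10.4 in p53-/- libraries 6, 7, 8, 10, 11 and 12. The p53-/- libraries were close to each other, while p53+/+ libraries spread on both sides of them, with library 2 lowest and library 5 highest. Against miR-194-2-3p, miR-192-5p had 100.6 to 187 reads for each read in p53+/+ livers (median 131) and 62.5 to 106 in p53-/- livers (median 95.9), and the ranges overlapped at their ends.

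In log2 normalised CPM over the 11 libraries, miR-192-5p and miR-194-2-3p had a Pearson r of -0.14 (permutation p = 0.692) and a Spearman rho of -0.21 (permutation p = 0.542), with adjusted values of 0.763 and 0.678 over the 5 pairs of members examined. Without p53+/+ library 2 and p53-/- library 11, the libraries farthest from the median of miR-192-5p, r was -0.51. Within the 6 p53-/- libraries r was -0.56 (exact permutation p = 0.253), where library 11 had the lowest miR-192-5p and the highest miR-194-2-3p. By library totals alone p53-/- library 6 had less miR-192-5p than library 11, 31626.8 against 37054.8 CPM. In normalised CPM the 5 p53+/+ libraries, too few for an r of their own, ran the other way at their low end, since library 2 was lowest for both. By library totals alone, miR-194-2-3p was 322 CPM in p53+/+ library 2 and lower in p53+/+ library 5, at 294 CPM. With each genotype's mean subtracted, r over the 11 libraries was 0.16 in normalised CPM. In the p53+/+ libraries the other direction on that scale rests on library 2, and no r was computed for them. Whether the relation differs between the genotypes was not tested. The arms of miR-192 had an r of 0.53 (permutation p = 0.0932, adjusted 0.294) and a rho of 0.46 (permutation p = 0.154, adjusted 0.280), falling to 0.30 without the same libraries. Within the 6 p53-/- libraries their r was 0.66 (exact permutation p = 0.151), and with each genotype's mean subtracted it was 0.58. The other 3 pairs involved miR-215-5p or miR-194-1-3p, with at most 13 reads in a library, and no relation can be read from such counts.

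Among the 247 other tested miRNAs with a mean of at least 10 CPM, the members resembled different ones. As a description over the same 11 libraries, which share their depth and scaling, miR-192-5p was closest to miR-221-5p (Pearson r = 0.91), miR-7a-5p (0.87) and miR-10a-5p (0.87). miR-192-3p was closest to miR-99a-5p (0.86), miR-350-3p (0.81) and miR-100-5p (0.76). For miR-194-5p the closest were miR-872-3p (0.88), the endothelial miR-126-5p (0.88) and miR-29a-3p (0.87), which represses collagens. For miR-194-2-3p they were miR-501-3p (0.89), miR-574-5p (0.89) and miR-744-5p (0.88), each of which had a log2 fold change above 0 (0.57, 0.62 and 0.58). These r values include the genotype difference, and with each genotype's mean subtracted they were 0.83, 0.74 and 0.59. For the other 3 members the same step left r between 0.77 and 0.91. No miRNA was among the closest 3 of more than 1 member.

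A list of further p53-induced miRNAs was set beside the members. Of the 31 tested arms of that list, 1 fell in livers without p53 (miR-34a-5p) and 0 rose in edgeR, and limma-voom and DESeq2 gave the same counts. Over all miRNAs edgeR and limma-voom each called 1 of 388 (0.258% in edgeR), and DESeq2 called 7 of 385 (1.82%). At an unadjusted p under 0.05 in edgeR, 10 were lower, 32.3% against 9.02% of all 388 miRNAs, and 2 were higher, 6.45% against 8.25%. Values were below 0 for 25 arms, 80.6%, against 51.0% of all 388 miRNAs, and the median log2 fold change was -0.22 against -0.01 over all. The list was chosen with earlier results of these data known, and several of its arms share a hairpin or a family. These shares are therefore a description only. After miR-34a-5p the smallest p belonged to miR-429-3p (-1.20) and miR-141-3p (-1.83), of the epithelial miR-200 family, and to miR-139-5p (0.47), all at an adjusted p of 0.174 in edgeR. Of the tested members, miR-194-5p and miR-192-5p had values below 0 (-0.52 and -0.14), and miR-194-2-3p and miR-192-3p above 0 (0.49 and 0.04), the last turning to -0.0040 when libraries were scaled by their totals alone.

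A list of hepatocyte miRNAs, the cells in which the members are chiefly found in liver, held no call. Of 15 tested arms 0 rose and 0 fell in edgeR, DESeq2 and limma-voom. Of all miRNAs edgeR called 0.258% and DESeq2 1.82%, so a list of 15 arms could hold no call without standing apart from them. At an unadjusted p under 0.05 in edgeR 1 was higher and 1 lower, 6.67% each, near the 8.25% and 9.02% of all 388 miRNAs. Values were below 0 for 7 arms, 46.7% against 51.0% of all, and the median log2 fold change was 0.10 against -0.01. The smallest p belonged to miR-193b-3p (0.57), miR-365-3p (-0.42), miR-148a-5p (-0.30) and miR-122-3p (0.19), and edgeR's adjusted p was 0.190, 0.221, 0.468 and 0.516. The labelled tissue was checked on the 4 hepatocyte markers, both arms of miR-122 and of miR-802, which all had reads and summed to between 435368 and 769704 normalised CPM. Nearly all of the sum was miR-122-5p, from 435132 to 769451 CPM, so the check rests on that arm. miR-802-5p averaged 6.61 CPM in p53+/+ and 6.33 CPM in p53-/- libraries.

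Summed levels of markers of other cell types overlapped between genotypes. All 7 epithelial markers had reads, and their sum ran from 2015 to 4425 CPM in p53+/+ and from 1575 to 3095 CPM in p53-/- libraries, highest in p53+/+ library 3. All 4 pancreas markers had reads, from 2.86 to 410.2 CPM in p53+/+ and from 6.75 to 27.5 CPM in p53-/- libraries, highest in p53+/+ library 5. The endothelial marker miR-126-3p, whose other arm was among the closest to miR-194-5p, was highest in p53+/+ library 2 at 10669.5 CPM, the library with the highest miR-194-5p. It was nearly as high in p53+/+ library 3 at 10489.6 CPM and in p53-/- libraries 12 and 8 at 10300.2 and 10209.4 CPM, where miR-194-5p was 6140, 4045 and 5648 CPM. In p53-/- library 12 miR-194-5p was below every p53+/+ library. The marker ran from 5770.4 to 10669.5 CPM in p53+/+ and from 5642 to 10300.2 CPM in p53-/- libraries. The part of other cell types in the miR-194-5p values was not tested.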

How the data were processed

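Total RNA of 50 mg of liver was sequenced as small RNA in 11 libraries, per the labels' protocols. The authors' deposited tables hold counts of reads for every hairpin and mature arm, and CPM that the authors scaled to the summed counts of each library. The submitters' processing notes name build GRCm38 and limma; the sources used here name no aligner, counter or trimming step. Library files and the table of the whole series differed in 0 values. Of 1418 entries, names listed for several hairpins were counted once, with the highest count; the entries of miR-194-5p differed by 0.297 to 0.423%.

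The test of counts was edgeR's quasi-likelihood F-test (edgeR 4.0.16, R 4.3.3; TMM scaling, filterByExpr, Benjamini-Hochberg adjustment, threshold 0.05), with SE taken from the F statistic. DESeq2 1.42.0 and limma-voom were alternatives. Arm ratios, log2 of counts plus 0.5, were tested with limma 3.58.1 with a trend on mean level. Log2 CPM for correlations used a prior count of 2, and correlations 100000 permutations or all orders, two-sided. Scripts were tested on simulated data. Library totals, of at least 1905609 counts, limited members under about 3 counts.

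Named miRNAs are all members, the 3 closest to each by correlation, the 4 smallest p of the lists of other p53-induced and hepatocyte miRNAs, and the 3 other arm pairs with the smallest p. miR-126-3p was named after its values were seen. Members and lists were chosen with earlier results of these data known. Hairpin positions come from RefSeq GRCm38.p6 and overlaps from GENCODE M21.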

Additional observations from a re-analysis of the deposited data

Results flagged for a closer look

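In 18 groups of values (7 arms and 2 arm ratios, each in 5 or 6 libraries), 3 had a library set apart from the others of its genotype by more than Dixon's 95% limit, which chance exceeds in about 1 of 20 groups. miR-194-5p in p53+/+ library 2 stood at 9457 normalised CPM, with the next library at 6140.3, and the gap was 0.711 of the range, barely past the limit of 0.71. miR-194-1-3p in p53-/- library 6 stood at 0.688 CPM with the other 5 libraries at 0, and miR-215-3p in p53+/+ library 4 at 0.673 CPM with the other 4 at 0. Both rest on 3 and 4 reads. Where only 1 library is above 0 the gap is the whole range whatever its count, so the rate of 1 of 20 groups does not apply to these.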

How the results depend on the processing

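The direction of miR-192-5p, miR-194-5p and miR-194-2-3p was the same under all 24 alternatives, with log2 fold changes from -0.30 to -0.04, from -0.65 to -0.27 and from 0.42 to 0.51. miR-192-3p, near 0, turned to -0.0040 with library totals alone, -0.0054 with counts summed over hairpins and -0.077 without p53+/+ libraries 1 and 2, and ran from -0.040 to 0.090 with 1 library left out. Over all miRNAs, 1 was called in every alternative except DESeq2, which called 7. Arm ratios called numbered 0 in the main test, 1 with a pseudocount of 5, 5 when both arms averaged at least 50 counts (61 pairs), and 0 to 3 with 1 library left out. The miR-194 ratio ran from -1.08 to -0.73 over 15 alternatives and passed in 5. The correlation of miR-192-5p with miR-215-5p, 0.39, was -0.12 without the 2 farthest libraries and 0.0034 with library totals. With library totals the correlation of the miR-192 arms fell from 0.53 to 0.31, and that of miR-192-5p with miR-194-2-3p moved from -0.14 to -0.19. Scaling moved the median of all miRNAs by at most 0.039 in log2. The cause of these changes was not tested. No paired analysis was possible because replicate numbers run across both genotypes and none is shared.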
